A study of Mus musculus with 778 samples.

Results

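The cyclic AMP pathway that holds mouse oocytes in meiotic arrest was followed in single-cell RNA-seq of growing oocytes through 10 genes, chosen by name for their place in the pathway, with earlier results of these data known: Gpr3, Gpr12, Gnas, Adcy3, Adcy9, Pde3a, Prkaca, Prkacb, Prkar1a and Prkar2b. All 10 are rows of the deposited table of 23201 genes and 223 oocytes. The oocytes came from wild type females of the outbred ICR strain and were sorted into 5 stages by diameter. Non-growing oocytes (NGO, under 20 μm, 46 cells) were from mice of 3 to 4 days, and the growing and fully grown stages were from mice of 3 to 4 weeks: GO1 (30 to 45 μm, 51 cells), GO2 (50 to 55 μm, 26 cells), GO3 (60 to 65 μm, 44 cells) and FGO (over 70 μm, 56 cells). Oocyte growth and age of the mouse therefore change together between NGO and GO1 and cannot be told apart. The cells were sequenced in 4 libraries, and since no source used here ties a cell to a library, a stage is 1 pooled sample without replicates and no test was made.

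Oocytes stay in prophase of meiosis while their cyclic AMP (cAMP) is high. In the mouse, the constitutively active receptor GPR3 in the oocyte membrane turns on the stimulatory G protein, whose alpha subunit is encoded by Gnas, and this drives adenylyl cyclase to make cAMP. The phosphodiesterase PDE3A breaks cAMP down and is restrained by cyclic GMP that enters from the follicle through gap junctions. cAMP binds the regulatory subunits of protein kinase A (PKA) and sets its catalytic subunits free, and these keep the cell cycle kinase CDK1 off by way of WEE1B and CDC25B.

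Many genes that answer to cAMP carry the cAMP response element (CRE), bound by CREB and its relatives, so the start regions of the members were searched for it. The motif was TGACGTCA, which reads the same on both strands, and its core was TGACG or, on the other strand, CGTCA, which a full CRE contains. RefSeq start windows (GRCm38.p6, 250 bases before to 50 after each start) were given for 9 of the 10 members, in 23 windows. A core stood in a window of 6 of these 9 members (66.7%), against 23.05% of 27025 genes, and a full CRE in 1 of 9 (Prkar1a) against 2.03% of genes. Genes with many windows have more chances to hold a site, and the 9 members had 23 windows while the 27025 genes had 32851. The shares per gene are thus not on equal terms. Of all windows, 20.8% held a core. No such share is given for the members, since some of their windows overlap and share a core. The core itself holds a CpG, and CpG content was not matched. The stretches below are cores of the receptor, of the G protein, of a cyclase and of both catalytic subunits of PKA, and the CRE of Prkar1a. Each is 30 bases long and runs 5′ to 3′ on the strand of the gene, with the CRE letters in capitals.
Gpr3, chr4:133212715-133212744, - strand: cagagggcgccgCGTCAaggacagagagcc
Gpr3, chr4:133212559-133212588, - strand: ctgggcttctggCGTCAccaaaccggtggc
Gnas, chr2:174329778-174329807, + strand: cgtgtgaggggtCGTCAccaccgcggggcc
Adcy9, chr16:4420505-4420534, - strand: cggacccggcggTGACGtgcgcgggccgcg
Prkaca, chr8:83972960-83972989, + strand: gggctgcgggggCGTCAcggacagaggact
Prkacb, chr3:146813031-146813060, - strand: ggggcttgaccgCGTCActtccggcgcgcc
Prkar1a, chr11:109650889-109650918, + strand: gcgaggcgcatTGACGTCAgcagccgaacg
These matches describe letters in a window and not a site in use. Further cores of the members lay before other starts of Gnas and Prkar1a and farther upstream of Prkaca.

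For 2 members the 250 bases before a start are shown whole: Gpr3, which heads the pathway in the oocyte, and Prkacb. Among the members that reached 10 CPM, Prkacb differed most in level between the stages. Of the start windows of Prkacb, the one richest in CpG is shown. Capitals again mark the cores.
Gpr3, chr4:133212537-133212786, - strand: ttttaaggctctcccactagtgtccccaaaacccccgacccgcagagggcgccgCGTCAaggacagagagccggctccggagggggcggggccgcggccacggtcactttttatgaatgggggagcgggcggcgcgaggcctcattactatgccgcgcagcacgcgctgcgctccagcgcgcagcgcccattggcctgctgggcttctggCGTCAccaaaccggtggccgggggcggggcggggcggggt
Prkacb, chr3:146812947-146813196, - strand: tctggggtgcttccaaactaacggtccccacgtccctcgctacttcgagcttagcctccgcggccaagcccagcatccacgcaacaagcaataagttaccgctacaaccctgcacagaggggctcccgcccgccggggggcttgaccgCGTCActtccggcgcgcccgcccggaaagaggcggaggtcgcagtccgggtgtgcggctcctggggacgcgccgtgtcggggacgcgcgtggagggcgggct
They hold 29 CpG dinucleotides before Gpr3 and 30 before Prkacb. The other start windows of Prkacb held no core and 5 and 2 CpG dinucleotides.

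Levels are given as CPM, the UMIs (tagged transcript molecules) of a gene summed over the cells of a stage per 1000000 UMIs of that stage. CPM is a share of the transcripts and not an amount per oocyte, so a lower share and a smaller amount cannot be told apart. Intervals are at 95% and cover counting error only. A difference between 2 stages was counted when it reached 2-fold and the stage with more had 10 CPM or above, and this size rule stands in for a test. From NGO to GO1, 2 of the 6 members with at least 10 CPM in either stage passed it, Gnas and Prkacb, both lower in GO1. Among all genes, 46.3% of the 8527 at that level passed in that step, 20.6% higher and 25.7% lower, so the count of members is no larger than the background. No member passed in the step from GO1 to GO2, where 3.14% of genes did, nor in the step up to GO3 (4.35%) or the last step to FGO (5.96%). Between the ends of the series, NGO and FGO, Gnas and Prkacb passed again, both lower in FGO, where 27.3% of 8132 genes passed, 920 of them higher and 1302 lower. The median log2 difference of all genes from NGO to GO1 was -0.15 on stage totals, -0.04 with size factors, 0.01 with TMM and -0.37 when CPM were averaged over cells, so values of the members are to be read against that shift.

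**Figure D1:**
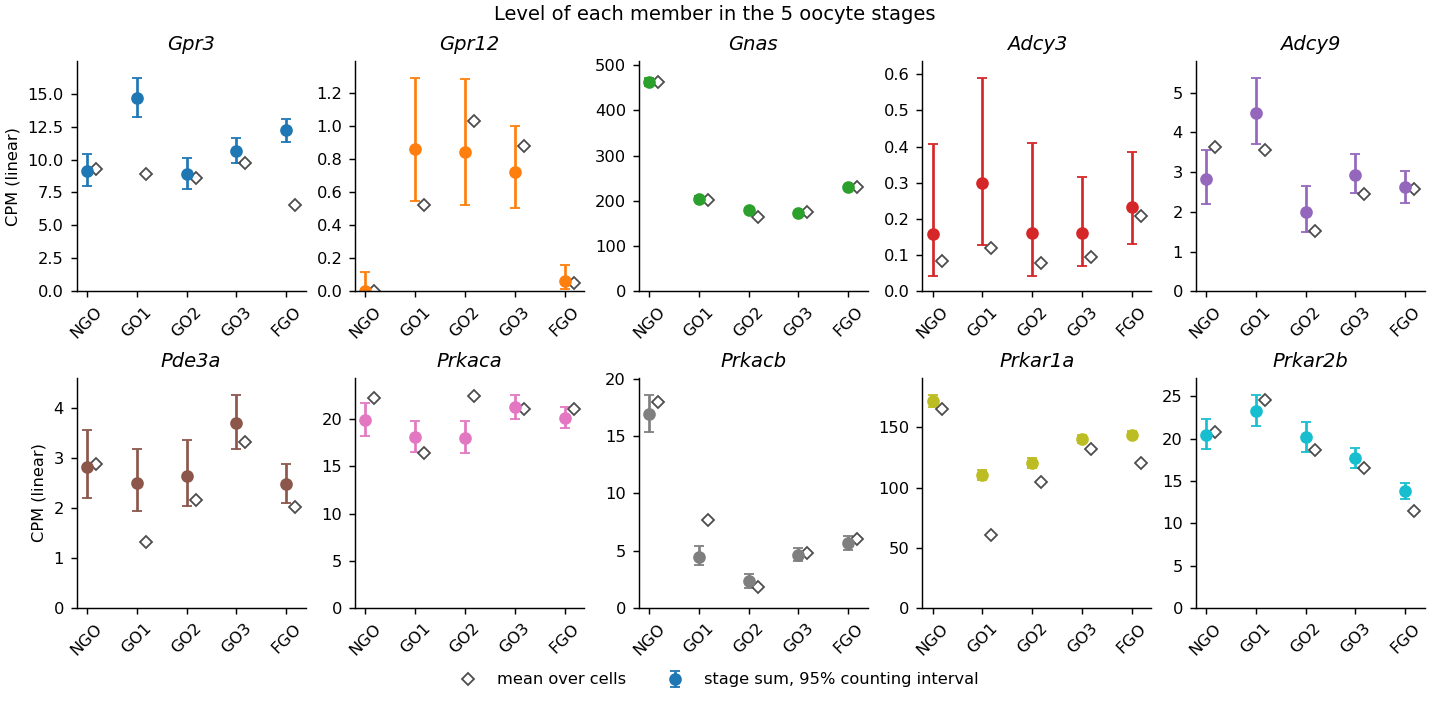
Level of each of the 10 members in the 5 stages, in CPM on linear axes that start at 0 and differ between panels. Filled points are stage sums with their 95% counting interval (for the 0 of Gpr12 in NGO, the limit that a count of 0 allows), and open diamonds are means over the cells of a stage. Gnas and Prkacb stand highest in NGO, and sum and mean part in GO1 for Gpr3, Prkacb and Prkar1a and in FGO for Gpr3.

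Stage totals lay between 24976634 and 64311908 UMIs, and single cells between 22279 and 3898137. The 10 deepest cells held 80.4% of the stage total in GO1, 73.2% in GO2 and 42.6% to 49.7% elsewhere, so that GO1 and GO2 sums rest on few oocytes. All 10 oocyte markers (among them Zp3, Gdf9 and Ddx4) were above 10 CPM in every stage. Markers of granulosa cells, which surround the oocyte, summed to 19.2 CPM in NGO, 47.96 in GO1, 36.8 in GO2, then 34.8 in GO3 and 22.5 in FGO over 12 genes. From NGO to GO1, Cyp19a1 went from 1.11 to 16.3 CPM, Nr5a2 from 6.91 to 14.5, Gata4 from 4.17 to 8.63 and Inha from 1.47 to 3.59. Others were lower: Fshr went from 2.82 to 2.32 CPM, Inhba from 1.67 to 0.785 and Wt1 from 0.437 to 0.262. The granulosa-defining Foxl2 and Amh stayed at or below 0.233 CPM. Markers of stroma and theca summed to 5.46 to 14.1 CPM over 9 genes. The 3 endothelial markers summed to 4.60 CPM in NGO and to 26.8 to 49.4 CPM later, nearly all of it Pecam1, with Cdh5 at no more than 0.0201 CPM. The 7 blood markers reached at most 0.0748 CPM together. Their part in the levels of the members was not tested beyond sums that leave out the cells highest in such markers.

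Gpr3 (chromosome 4, 132765255 to 132768451, minus strand, NCBIM37) was found at a low level in all 5 stages. It had 9.17 CPM in NGO (8.02 to 10.4, 231 UMIs), 14.7 in GO1 (13.2 to 16.2, 392 UMIs), 8.89 in GO2 (7.76 to 10.1, 222 UMIs), then 10.7 in GO3 (9.77 to 11.6, 531 UMIs) and 12.2 in FGO (11.4 to 13.1, 785 UMIs). The highest and the lowest stage were thus 1.65-fold apart, under the size rule. The order of the stages rested on the deep cells. In GO1 the 10 deepest cells had 16.3 CPM and the others 8.02, and in FGO the values were 17.9 and 6.59. Averaged over cells, Gpr3 was at 9.29 CPM in NGO, 8.89 in GO1 and 6.58 in FGO, which turns the direction from NGO to GO1, from GO3 to FGO and from NGO to FGO. The median oocyte had 9.16 CPM in NGO, 0 in GO1, 8.16 in GO2, then 9.84 in GO3 and 4.32 in FGO. The highest single value was 82.98 CPM in a GO1 cell, which also had the highest value of Prkaca (165.96 CPM). GO1 cells were the shallowest by median (110146 UMIs), and in a shallow cell few UMIs make a high CPM. The start of Gpr3 overlaps that of Cd164l2 on the other strand, which had 23855 to 48265 UMIs per stage. Strand use in counting is not given in the sources used here, so reads of the overlap cannot be told apart.

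Gpr12 (chromosome 5, 147393727 to 147396815, minus strand), a close relative of GPR3 that also raises cAMP, was nearly absent at both ends of the series. It had 0 UMIs in NGO, 23 in GO1 (0.860 CPM, 0.545 to 1.29), 21 in GO2 (0.841 CPM), then 36 in GO3 (0.723 CPM) and 4 in FGO (0.0622 CPM, 0.0169 to 0.159). Taking 3 UMIs as the limit of the 0 in the NGO sum (0.119 CPM), GO1 was at least 7.22-fold higher than NGO. GO3 was 11.6-fold higher than FGO (4.16 to 44.9). All of these levels lie under 10 CPM and outside the size rule, and the UMIs came from 8 cells in GO1, 9 in GO2, then 13 in GO3 and 4 in FGO. Gpr12 was therefore seen above its limit in the 3 growing stages, at less than 1 CPM.

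Gnas (chromosome 2, 174109821 to 174172245, plus strand), the gene of the stimulatory alpha subunit, stood higher in NGO than in any later stage. It had 463 CPM in NGO (454 to 471, 11655 UMIs), 204 in GO1 (199 to 210), 180 in GO2 (174 to 185), then 173 in GO3 (169 to 176) and 230 in FGO (226 to 233). From NGO to GO1 the level was 2.27-fold lower (2.20 to 2.34). Single oocytes ran from 280 to 864 CPM in NGO with a median of 439, and from 35.01 to 426 in GO1 with a median of 169, so the ranges overlap while the lower quartile of NGO (363 CPM) lay above the upper quartile of GO1 (250 CPM). The 10 deepest cells of GO1 (207 CPM) and the others (192 CPM) were close. From GO3 to FGO, Gnas was 1.33-fold higher (1.30 to 1.37), short of the rule. FGO was 2.02-fold lower than NGO (1.97 to 2.06), at the edge of the rule. On the log2 scale that difference was -1.01 on stage totals, -0.93 with size factors, -0.84 with TMM, -0.92 with cells thinned to 20000 UMIs and -0.95 without the tenth of cells highest in somatic markers, and under these last 4 settings it fell short of 2-fold. The gene shares its locus with the antisense transcript Nespas, which had 15 to 67 UMIs per stage, and with AF085738. Gnas also has several starts, and counts per gene do not separate its transcripts. The levels are thus those of the gene as a whole.

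The cyclases among the members gave few UMIs. Adcy3 (chromosome 12, 4133103 to 4213525, plus strand) had 4 UMIs in NGO, 8 in GO1, 4 in GO2, then 8 in GO3 and 15 in FGO, which is 0.159 to 0.299 CPM with intervals that overlap in all stages. Its tail overlaps Cenpo on the other strand, with 572 to 1552 UMIs per stage. Adcy9 (chromosome 16, 4287529 to 4420498, minus strand) had 2.82 CPM in NGO (71 UMIs), 4.49 in GO1, 2.002 in GO2 (50), then 2.93 in GO3 and 2.61 in FGO. GO1 was 2.24-fold above GO2 (1.598 to 3.18) at a level under 10 CPM. Of the 12 cyclases and cyclase-associated genes listed for the pathway, only Adcy2 reached 10 CPM in any stage. It had 14.3 CPM in NGO, 6.02 in GO1, 6.61 in GO2, then 4.58 in GO3 and 3.79 in FGO, and passed the rule from NGO to GO1 (2.37-fold lower, 1.97 to 2.88) and from NGO to FGO (3.77-fold lower, 3.19 to 4.45).

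Pde3a (chromosome 6, 141197790 to 141447872, plus strand), the phosphodiesterase whose activity releases the arrest, was found at a low level in all 5 stages, within a narrow range on stage sums. It had 2.82 CPM in NGO (2.20 to 3.55), 2.50 in GO1 (1.94 to 3.18), 2.64 in GO2 (2.04 to 3.36), then 3.69 in GO3 (3.18 to 4.27) and 2.47 in FGO (2.10 to 2.89). GO3 was 1.49-fold above FGO (1.20 to 1.86), and the intervals of the other 4 stages overlap each other. From 66 to 184 UMIs per stage stand behind these values, and the median cell of GO1 had none. Averaged over cells the level was 2.88 CPM in NGO, 1.32 in GO1 and 3.33 in GO3, a log2 difference of -1.13 from NGO to GO1. With thinned cells the log2 difference was -1.93 from GO3 to FGO and -1.28 from NGO to FGO, all under 10 CPM. These values rest on very few UMIs, since Pde3a was then seen in 4 of 46 NGO, 4 of 44 GO3 and 2 of 56 FGO cells.

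Of the catalytic subunits of PKA, Prkaca (chromosome 8, 86496877 to 86520344, plus strand) varied least on stage sums among the members above 10 CPM. It had 19.9 CPM in NGO (18.2 to 21.7), 18.1 in GO1 (16.5 to 19.8), 18.1 in GO2 (16.4 to 19.8), then 21.3 in GO3 (20.0 to 22.6) and 20.2 in FGO (19.1 to 21.3), a 1.18-fold range. Without the 10 deepest cells of each stage the range was wider, from 12.2 CPM in GO1 to 23.02 in FGO, and with cells thinned to 20000 UMIs GO1 stood lower than its neighbours (log2 -0.997 from NGO, 1.07 to GO2, the latter past the rule). Prkacb (chromosome 3, 146392543 to 146475924, minus strand) differed most of these members, with a 7.28-fold range. It had 16.9 CPM in NGO (15.3 to 18.6, 426 UMIs), 4.49 in GO1 (3.72 to 5.36, 120 UMIs), 2.32 in GO2 (1.76 to 3.00, 58 UMIs), then 4.64 in GO3 (4.06 to 5.27, 231 UMIs) and 5.66 in FGO (5.09 to 6.27, 364 UMIs). It was thus highest in NGO, lowest in GO2 and at a middle level in FGO. From NGO to GO1 it was 3.77-fold lower (3.07 to 4.65), and from NGO to FGO 2.99-fold lower (2.59 to 3.44). From GO2 to GO3 it was 1.997-fold higher (1.49 to 2.71) at a level under 10 CPM, or by 1.43 on the log2 scale averaged over cells and by 2.05 without the 10 deepest cells. Single NGO cells had 0 to 55.8 CPM with a median of 17.4, GO1 cells 0 to 70.7 with a median of 0, and FGO cells 0 to 32.3 with a median of 4.72. The 5 highest GO1 values rest on 2 or 3 UMIs each, in cells with 36795 to 82450 UMIs, and the mean over GO1 cells was 7.67 CPM.

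**Figure D2:**
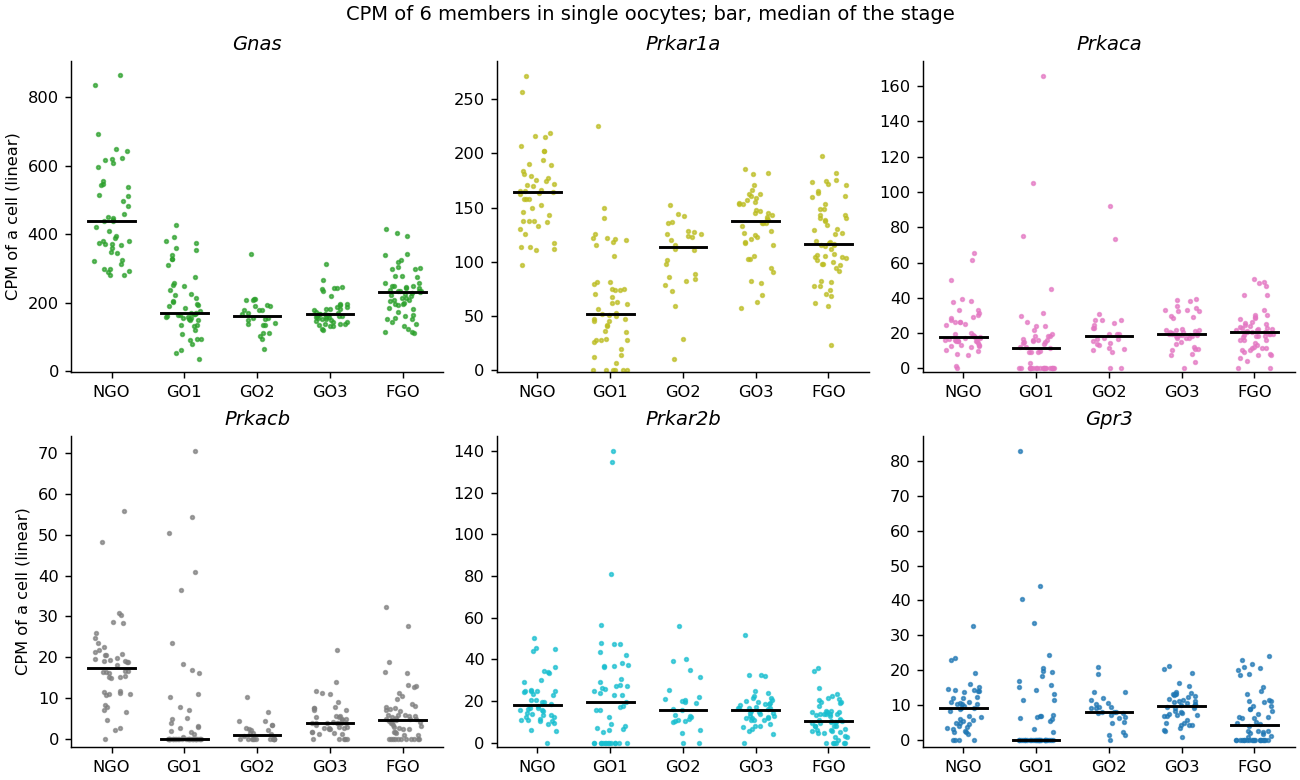
CPM of 6 members in each of the 223 oocytes (points, linear axes that differ between panels), by stage, with the stage median as a bar. For Gnas the lower quartile of NGO lies above the upper quartile of every later stage, and for Prkaca, Prkacb, Prkar2b and Gpr3 the highest single cell is in GO1. GO1 cells were the shallowest by median, and in a shallow cell few UMIs make a high CPM.

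The regulatory subunit Prkar1a (chromosome 11, 109510719 to 109530970, plus strand) stood highest in NGO and lowest in GO1. It had 171.8 CPM in NGO (166.7 to 177.0), 110.1 in GO1 (106.2 to 114.2), 120.5 in GO2 (116.2 to 124.9), then 140.3 in GO3 (137.01 to 143.6) and 143.9 in FGO (140.99 to 146.9). NGO was 1.56-fold above GO1 (1.49 to 1.64) on stage sums, short of the rule. GO1 cells were not alike in this gene. The 10 deepest had 122.7 CPM and the other cells 58.3, with a median cell at 51.6 CPM in GO1 against 164.8 in NGO, 113.8 in GO2, then 137.2 in GO3 and 116.6 in FGO. Averaged over cells, the log2 difference from NGO to GO1 was -1.44 and passed 2-fold, and it also did so without the 10 deepest cells (-1.50) and after thinning each cell to 20000 UMIs (-1.33). The coefficient of variation over cells was 77.3% in GO1 and 22.5% to 33.5% in the other stages. In GO1, counting alone would give 33.6% at the level of the stage sum. It would give more at the lower mean over cells (60.9 CPM), on which the 77.3% is based.

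Prkar2b (chromosome 12, 32643341 to 32746161, minus strand) had 20.5 CPM in NGO (18.7 to 22.3), 23.3 in GO1 (21.5 to 25.2), 20.2 in GO2 (18.5 to 22.02), then 17.7 in GO3 (16.5 to 18.9) and 13.8 in FGO (12.9 to 14.7). Levels were lower at each step after GO1, except from GO2 to GO3 with thinned cells (log2 0.53), and GO1 and FGO were 1.69-fold apart, while no single step passed the rule on stage sums. With thinned cells Prkar2b was lower past the rule from GO3 to FGO (log2 -1.81) and from NGO to FGO (-1.87). After thinning it was seen in 18 of 46 NGO (25.1% to 54.6%) and 7 of 26 GO2 cells (11.6% to 47.8%). For GO3 it was 16 of 44 cells (22.4% to 52.2%) and for FGO 5 of 56 (2.96% to 19.6%). The thinned values thus rest on few UMIs. For this share of cells, the interval of FGO lay below those of NGO and GO3 and overlapped that of GO2. The median cell followed with 19.5 CPM in GO1, 15.97 in GO2, then 15.92 in GO3 and 10.4 in FGO.

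The make-up of PKA transcripts was read as the share of each subunit in the UMIs of its class, with exact binomial intervals. These shares compare tagged molecules and carry no correction for how well each transcript is captured. Prkacb held 45.9% of catalytic UMIs in NGO (42.7% to 49.2%), 19.9% in GO1 (16.8% to 23.3%), 11.4% in GO2 (8.77% to 14.5%), then 17.9% in GO3 (15.8% to 20.1%) and 21.9% in FGO (19.9% to 23.97%), and Prkaca the rest. NGO oocytes thus held nearly as many UMIs of Prkacb as of Prkaca, and oocytes of the later stages mostly Prkaca. Leaving out the 10 deepest cells of each stage, the share was 31.9% in GO1 and 5.48% in GO2. In the deep cells alone, those with at least 20 catalytic UMIs, the median share of Prkacb was 42.9% in 19 NGO cells, 12.6% in 7 GO1 cells, 12.1% in 10 GO2 cells, about 16% in 26 GO3 cells and 21.4% in 29 FGO cells.

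Among the regulatory subunits, Prkar1a held 85.9% of UMIs in NGO, 61.5% in GO1, 65.5% in GO2, then 75.7% in GO3 and 84.97% in FGO. Prkar2b held 8.13% to 13.003% on stage sums. On these sums, what Prkar1a lacked in the growing stages was mostly held by Prkar2a (chromosome 9, 108594474 to 108651843, plus strand). It is the other type II subunit and is not among the 10 members. Prkar2a held 3.89% of regulatory UMIs in NGO (3.37% to 4.46%), 25.4% in GO1 (24.1% to 26.6%), 23.5% in GO2 (22.3% to 24.8%), then 14.8% in GO3 (14.1% to 15.5%) and 6.86% in FGO (6.39% to 7.35%). Its level was 7.78 CPM in NGO, 45.4 in GO1, 43.3 in GO2, then 27.4 in GO3 and 11.6 in FGO. It passed the rule from NGO to GO1 (5.84-fold higher, 5.02 to 6.82) and from GO3 to FGO (2.36-fold lower, 2.16 to 2.58). Here too deep cells of GO1 differed from the others, with 52.7 CPM in the 10 deepest and 15.7 in the rest. In that rest Prkar2b, at 21.97 CPM, stood above Prkar2a. The median share per cell was 2.36% in 42 NGO cells, 19.3% in 19 GO1 cells, 21.4% in 25 GO2 cells, 13.2% in 44 GO3 cells and 6.55% in 50 FGO cells. Prkar1b had at most 7 UMIs in a stage. Catalytic subunits made up 15.5% of all PKA UMIs in NGO and 9.97% to 13.2% later.

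**Figure D3:**
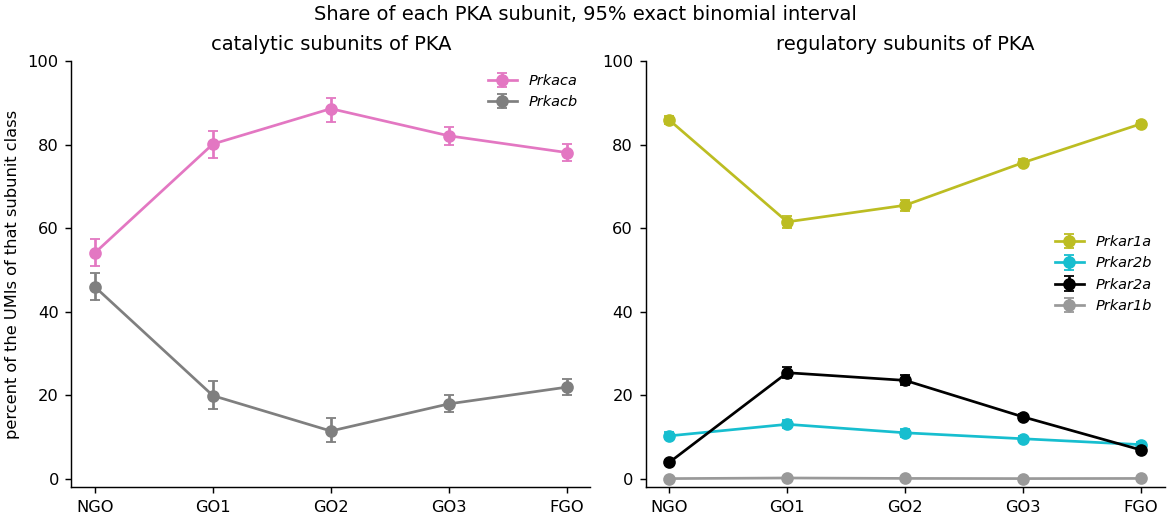
Share of each subunit in the UMIs of the catalytic (left) and regulatory (right) subunits of PKA, in percent, by stage, from stage sums with exact 95% binomial intervals. Prkacb drops from 45.9% in NGO to 11.4% in GO2, and Prkar2a is at 25.4% in GO1 and back at 6.86% in FGO.

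The wider pathway was taken from 8 lists, all but 3 genes of which are rows of the table. From NGO to GO1, 58 of them had at least 10 CPM in either stage, and 14 were higher and 15 lower past the rule, with a median log2 difference of -0.01 against -0.15 over all genes. As a share this is near the 46.3% of all genes. Averaged over cells, Pde6d, Ccnb1 and Crebbp fell short of 2-fold from NGO to GO1 (log2 0.39, 0.75 and 0.86), as did Pde4a (0.92) and Akap11 (-0.98) from NGO to FGO. Pkig fell short from NGO to GO1 with size factors (-0.91) and with TMM (-0.85). No listed gene of 50 passed from GO1 to GO2, where 3.14% of all genes did. From GO2 to GO3, 3 of 49 passed beside 4.35% of all genes, and from GO3 to FGO 4 of 51 beside 5.96%. From NGO to FGO 15 of 56 passed, 4 higher and 11 lower, beside 27.3% of all genes. These counts are not read as a result about the pathway.

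Among receptors and G proteins, 2 of 14 were higher and 4 lower in GO1, against 20.6% higher and 25.7% lower among all genes. Ric8a, a chaperone and exchange factor of G protein alpha subunits, was at 20.1 CPM in NGO and 1.79 in GO1 (11.2-fold lower, 8.31 to 15.4), and came back to 7.28 in FGO. Gng5, a gamma subunit, was at 532 and 211 CPM, and Arrb2, an arrestin that silences receptors, at 11.7 and 4.90. Rgs2, a regulator of G protein signalling, was at 319 CPM in NGO, 717 in GO1 and 512 in FGO, and the beta subunit Gnb5 at 6.94 and 20.0. The fourth gene of the list that was lower was Gnas itself.

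Of 5 phosphodiesterases with at least 10 CPM, 3 were higher in GO1 and none lower, beside 20.6% and 25.7% of all genes. Pde3b, the close relative of Pde3a, was at 2.50 CPM in NGO, 16.7 in GO1 (6.68-fold higher, 5.12 to 8.84), 8.41 in GO2, then 7.67 in GO3 and 6.48 in FGO. Pde6d (222 and 461 CPM) and Pde4dip (13.9 and 29.01 CPM) were just past 2-fold on stage sums (1.31-fold and 2.72-fold averaged over cells), and both encode proteins that bind phosphodiesterases and do not themselves cleave cAMP. Pde4a was at 5.64 CPM in NGO and 13.5 in FGO.

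Of the 3 PKA inhibitors, Pkib and Pkig were lower in GO1 than in NGO, and Pkia had at most 4 UMIs in a stage. Pkib was at 64.5 CPM in NGO, 18.7 in GO1, 16.2 in GO2, then 44.3 in GO3 and 96.8 in FGO, and passed the rule from NGO to GO1 (3.45-fold lower, 3.12 to 3.82), up to GO3 (2.74-fold higher, 2.46 to 3.06) and again up to FGO (2.18-fold higher, 2.08 to 2.29). It was the only listed gene that passed in both of these last steps. Pkig was at 167 CPM in NGO, 83.3 in GO1, 85.1 in GO2, then 92.9 in GO3 and 138.6 in FGO. In single cells the median of Pkib was 52.995 CPM in NGO, 15.9 in GO1 and 99.4 in FGO.

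The anchoring proteins that tether PKA in the cell gave 2 higher and 3 lower of 11, near the share of all genes (20.6% and 25.7%). Akap1, which sits on mitochondria, was at 27.3 CPM in NGO and 82.7 in GO1, and Akap17b at 141.995 and 401. Akap8 (65.5 and 19.1 CPM), Akap11 (22.5 and 6.99) and Akap12 (429 and 168) were lower in GO1 and also in FGO. A further list held other genes of the cAMP response: exchange factors, Popdc genes, CREB with its relatives, and their coactivators. Of its 6 genes with at least 10 CPM, 4 were higher in GO1 and none lower. For all genes the shares were 20.6% higher and 25.7% lower. Popdc2, a cAMP-binding membrane protein, was at 0.992 CPM in NGO, 24.4 in GO1 (24.6-fold higher, 16.5 to 38.2), 29.6 in GO2, then 18.4 in GO3 and 5.27 in FGO. Rapgef4, the cAMP-activated exchange factor EPAC2, was at 3.29 CPM in NGO, 26.02 in GO1, 27.9 in GO2, then 15.6 in GO3 and 6.33 in FGO. Both were also lower past the rule from GO3 to FGO. Rapgef2 (4.80 and 10.6 CPM) and the coactivator Crebbp (31.4 and 65.7 CPM, named after its values were seen) were the others. Prkar2a, Popdc2 and Rapgef4 thus shared a course that was low in NGO, high in GO1 and GO2 and low again in FGO.

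Downstream of PKA, Ccnb1, the cyclin that activates CDK1, was at 459 CPM in NGO, 1374 in GO1 and 1141 in FGO, and the phosphatase Cdc25a at 17.5 CPM in NGO and 47.99 in GO1. Cdc25b, the phosphatase held back by PKA in oocytes, was at 50.7 CPM in NGO, 15.4 in GO1 and 12.2 in FGO (4.17-fold lower than NGO, 3.81 to 4.56). Wee1 was at 40.7 CPM in NGO, 13.6 in GO1, 10.7 in GO2, then 26.2 in GO3 and 28.2 in FGO, and Cdc25c at 12.7 in NGO and 5.49 in FGO. Wee1 is not the gene of WEE1B, which is Wee2. Wee2 was on the same list and passed the rule in no step. Of the genes that link the oocyte to cyclic GMP of the follicle, Gucy1a3, a subunit of guanylyl cyclase, was at 10.99 CPM in NGO and 1.53 in GO1, and Impdh2, which makes guanine nucleotides, at 74.1 and 13.7 (5.42-fold lower, 4.84 to 6.07). Npr2, the cyclic GMP source of granulosa cells, had 1 to 3 UMIs in a stage, while the gap junction gene Gja4 of the oocyte had 478 to 550 CPM.

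**Figure D4:**
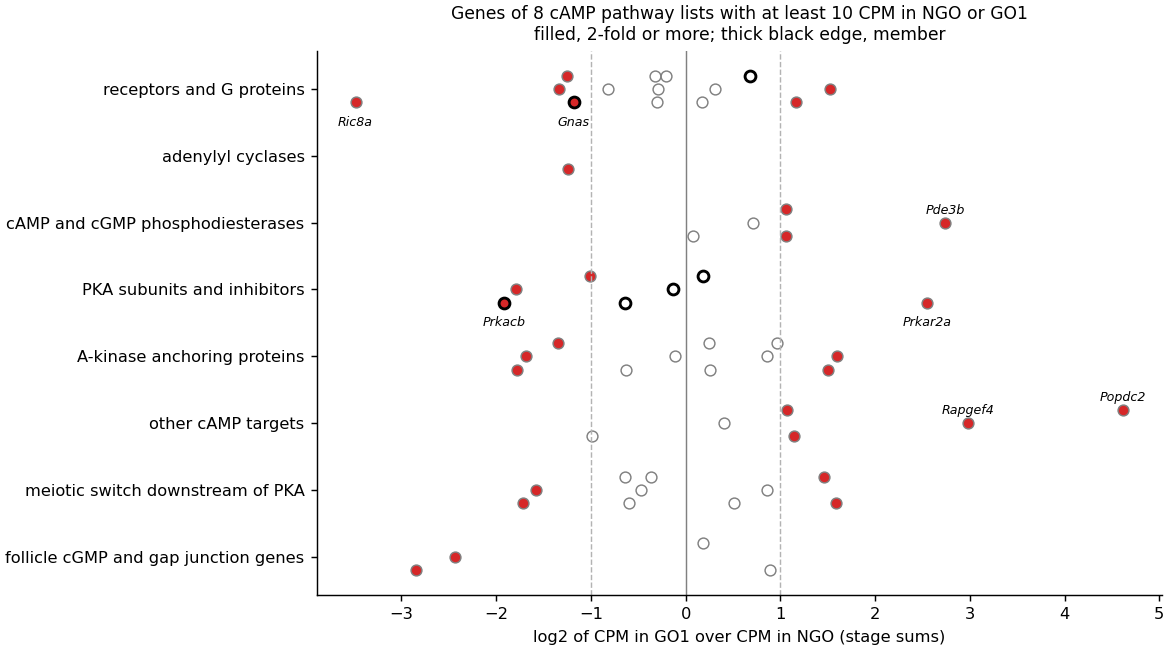
Log2 of the CPM in GO1 over the CPM in NGO (stage sums) for the genes of 8 cAMP pathway lists with at least 10 CPM in either stage, 1 row of points per list, spread vertically for legibility only. Filled points passed 2-fold (dashed lines), a thick black edge marks a member. Gnas and Prkacb are the filled members, and Popdc2 lies farthest to the right.

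The genes with the stage profile most like that of a member were sought among the 8671 genes that reached 10 CPM somewhere in the series, as the smallest root mean square distance between log2(CPM + 1) profiles over the 5 stages, each centred on its mean. For Prkacb these were Senp2 (distance 0.024), Abce1 (0.046) and Cse1l (0.071). Senp2, for example, had 25.2 CPM in NGO, 6.77 in GO1, 3.76 in GO2, then 7.31 in GO3 and 8.43 in FGO. For Gnas they were Phf1 (0.032), Gnptg (0.035) and Rtca (0.038), and for Prkar2b Ap4e1 (0.039), Dkc1 (0.062) and Atp1b3 (0.065). The 5 stages are few points for so many genes, and nothing is read from the likeness.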

How the data were processed

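Single oocytes were measured by UMI-based single-cell RNA-seq. The authors split reads by cell barcode, aligned them to the mm9 transcriptome, removed duplicates by UMI and deposited counts of transcripts per gene and cell, without normalization, for cells that passed their filters. Cell names give the stage only, and 96 barcodes were reused between the 4 libraries, so the library of a cell is unknown and cells of a stage were summed as 1 sample. Doublets were not called, since oocytes were picked by hand. The chromatin data of the study were not analysed here.

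UMIs were summed per stage and divided by the stage total (CPM). Sums carry exact Poisson intervals and ratios exact intervals of the binomial split at 95%, which cover counting error only. With 1 sample per stage no p-value was computed. Beyond the members, the genes named are those past the size rule in 8 pathway lists (up to 3 per direction, list and step) and the 3 nearest profiles of the 3 members that vary most among those with at least 10 CPM in their highest stage. Members and lists were chosen with earlier results of these data known. Gene positions are from GENCODE vM1 on NCBIM37, the same build as mm9. Adrbk1, Adrbk2 and Ric8 are not row names of the table.

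Alternatives were size factors (DESeq2 1.42.0) and TMM (edgeR 4.0.16), both for scaling only, the mean over cells, sums that leave out the 10 deepest cells per stage, cells thinned to 20000 UMIs, sums without the tenth of cells highest in somatic markers, no filter, 50 CPM and 1.5-fold. Python 3.11.15, numpy 2.4.6, pandas 2.3.3 and scipy 1.17.1 were used, and the size rule was checked on simulated counts.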

Additional observations from a re-analysis of the deposited data

How the results depend on the processing

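Gnas and Prkacb were lower in GO1 than in NGO on stage totals and under the 6 settings that rescale, thin or leave out cells, at log2 -1.02 to -1.26 for Gnas and -1.23 to -1.97 for Prkacb. From NGO to GO1, 2 members passed the rule, against 1 at 50 CPM (Gnas), 4 at 1.5-fold (Gpr3 and Prkar1a in addition) and 3 with the mean over cells, without the 10 deepest cells or with thinned cells (Prkar1a in addition) or with no filter (Gpr12 in addition). From GO1 to GO2 it was 0, against 1 with thinned cells (Prkaca), with no filter (Adcy9) or at 1.5-fold (Gpr3). From GO3 to FGO it was 0, against 2 with thinned cells (Gpr3 and Prkar2b) and 1 with no filter (Gpr12). From NGO to FGO it was 2, against 1 with size factors, with TMM, at 50 CPM or without the cells highest in somatic markers, and with thinned cells it was 2 with Prkar2b in place of Gnas, and with no filter 3, with Gpr12 at 4 UMIs against 0. Of the pathway lists, 0 genes passed from GO1 to GO2, against 4 with the mean over cells or without the 10 deepest cells, and 3 from GO2 to GO3, against 5 and 6. With the mean over cells, without the 10 deepest cells and with thinned cells in turn, Prkacb held 31.8%, 31.9% and 28.6% of catalytic UMIs in GO1 and 7.40%, 5.48% and 0% in GO2. With thinned cells it held 38.6% in NGO, 21.7% in GO3 and 25.8% in FGO. Thinned shares rest on few UMIs and carry no interval. After thinning, Prkacb was seen in 14 of 46 NGO, 5 of 51 GO1 and 0 of 26 GO2 cells. For GO3 it was 5 of 44 cells and for FGO 8 of 56. With those settings in the same order as above, Prkar2a held 21.4%, 16.1% and 20.9% of regulatory UMIs in GO1 and 13.2%, 13.4% and 13.3% in GO3. In GO2 it held 21.6% without the 10 deepest cells, 21.5% with thinned cells and 22.04% without the cells highest in somatic markers, and with thinned cells 1.69% in NGO and 6.34% in FGO. The cause of these differences was not tested. Gnas and Prkacb kept their direction in the steps where they passed on stage totals. Some differences passed with thinned cells and not on stage totals. Gpr3 from GO3 to FGO was at log2 -1.49 against 0.20 on stage totals, a turned direction. Prkaca from GO1 to GO2 was at 1.07 against -0.0028. Both rest on few UMIs, and no interval was computed for thinned log2 differences. After thinning, Gpr3 was seen in 10 of 44 GO3 cells (22.7%, 11.5% to 37.8%) and 4 of 56 FGO cells (7.14%, 1.98% to 17.3%). Those intervals overlap, but they are for the share of cells and not for the level. The direction also turned averaged over cells (log2 -0.57) and without the 10 deepest cells (-0.50). Whether the turn goes beyond counting error was not tested. Prkaca was seen in 9 of 51 GO1 cells and 11 of 26 GO2 cells. Single listed genes were not recomputed with cells thinned or left out. No paired analysis was possible because no test was made: cell numbers recur in every stage but name different cells.

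Depth limits most members: at 20000 UMIs per cell, 1 UMI is worth more than the stage level of every member except Gnas and Prkar1a. Each stage is 1 sample, so differences between animals or libraries cannot be seen.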
